A study of Mus musculus with 30 samples.

Results

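The expression of 10 genes of glucose uptake and glycolysis was followed in mouse embryonic fibroblasts (MEFs) put under stress with the p38 SAPK pathway intact, inhibited or deleted. The members were Slc2a1, Hk1, Hk2, Pfkl, Pfkp, Pfkfb3, Pgk1, Pgam1, Ldha and Pdk1, 10 of the 21689 named genes on the array. They were picked as genes of this pathway with earlier results of these data known, and their probes were found by gene name. For 9 of them the array used the same symbol, and Ldha was found by its transcript accession, under the array name Ldh1. Together they had 21 of the 41174 probes, with 6 probes for Hk1, 3 each for Pfkp and Pfkfb3, 2 each for Pgk1 and Ldha, and 1 for each of the other 5 genes.

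Wild type MEFs made up 11 of the 15 groups. They were treated with anisomycin (25 ng/ml, 45 min), an inhibitor of protein synthesis that activates stress kinases, with the cytokine TNFα (100 ng/ml, 45 min), or with NaCl (100 mM) for 45 min, 2 h or 8 h as a hyperosmotic stress. Each of these 5 treatments was also given with SB203580, an inhibitor of p38α and p38β, and 1 group received SB203580 alone. The sample titles give SB203580 as 10 mM for 2 h, whereas the treatment protocol gives 10 µM for 30 min before the stress. The other 4 groups were p38α knockout MEFs (p38α-/-), untreated or treated with anisomycin (45 min), TNFα (45 min) or NaCl (2 h) at the same doses. Each group had 2 arrays, described by the study as independent experiments, and each genotype was 1 cell line, so a difference between genotypes is also a difference between lines. On every array the treated sample was labelled with Cy5 and hybridised against a Cy3-labelled pool of 2 untreated wild type cultures. That pool was the only untreated wild type sample, and the dyes were not swapped. A value against the pool therefore leaves out the spread of the untreated cells and keeps any dye effect.

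Glucose enters fibroblasts mainly through the transporter Slc2a1 (GLUT1), and hexokinases (Hk1, Hk2) trap it as glucose 6-phosphate. Phosphofructokinase (the liver subunit Pfkl and the platelet subunit Pfkp) commits the sugar to glycolysis, and Pfkfb3 makes fructose 2,6-bisphosphate, the strongest activator of that step. Pgk1 and Pgam1 act in the lower, energy-yielding steps, Ldha turns pyruvate into lactate, and Pdk1 holds pyruvate back from the mitochondria by phosphorylating pyruvate dehydrogenase. Several of these genes are textbook targets of the hypoxia-inducible factor HIF-1, which binds DNA at a core of ACGTG or GCGTG.

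The sequences just upstream of the transcription starts are shown because several members are textbook HIF-1 targets, and members were called both higher and lower at 8 h of NaCl. RefSeq (GRCm38.p6) gave 14 annotated start windows for the 10 genes, of 250 bases each. Of the core, only the form ACGTG was searched, on both strands (ACGTG or CACGT). It was in a window of 6 of the 10 members, namely Slc2a1, Hk2, Pfkfb3, Pgk1, Pgam1 and Ldha. Counted by window, it was in 7 of the 14, beside 16.6% of all 32851 promoter windows of the same length. The windows of Hk1, Pfkl, Pfkp and Pdk1 did not hold these letters. The form GCGTG was neither counted nor marked, and a window of each of these genes holds it. The absence of ACGTG is therefore not an absence of the core. The tonicity-response core TGGAAA (or TTTCCA) was in 1 of the 14 windows, of Hk1, beside 18.6% of all windows. A match is a description of the letters and not a binding site. For 7 genes 1 window is printed 5′ to 3′ on the gene's strand, ending at the base before the start, with each ACGTG or CACGT in capitals. Ldha and Pdk1 each had another window, not printed, without these letters. Both windows of Pfkfb3 held them and are not printed.
Slc2a1, chr4:119108495-119108744, plus strand: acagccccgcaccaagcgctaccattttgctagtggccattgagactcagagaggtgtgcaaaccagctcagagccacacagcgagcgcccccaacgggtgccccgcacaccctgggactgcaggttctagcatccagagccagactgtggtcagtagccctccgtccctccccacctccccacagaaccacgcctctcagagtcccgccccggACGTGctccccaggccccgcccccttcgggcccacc
Hk2, chr6:82774455-82774704, minus strand: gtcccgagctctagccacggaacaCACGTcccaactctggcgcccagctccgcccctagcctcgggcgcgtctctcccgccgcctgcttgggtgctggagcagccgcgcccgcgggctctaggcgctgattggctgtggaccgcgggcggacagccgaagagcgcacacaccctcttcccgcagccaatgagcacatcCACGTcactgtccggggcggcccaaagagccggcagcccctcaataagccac
Pgk1, chrX:106186850-106187099, plus strand: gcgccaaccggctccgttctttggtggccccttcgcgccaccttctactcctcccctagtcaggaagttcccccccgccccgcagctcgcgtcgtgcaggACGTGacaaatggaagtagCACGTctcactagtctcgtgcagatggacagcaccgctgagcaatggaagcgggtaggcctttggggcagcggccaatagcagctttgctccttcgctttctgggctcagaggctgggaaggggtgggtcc
Pgam1, chr19:41911621-41911870, plus strand: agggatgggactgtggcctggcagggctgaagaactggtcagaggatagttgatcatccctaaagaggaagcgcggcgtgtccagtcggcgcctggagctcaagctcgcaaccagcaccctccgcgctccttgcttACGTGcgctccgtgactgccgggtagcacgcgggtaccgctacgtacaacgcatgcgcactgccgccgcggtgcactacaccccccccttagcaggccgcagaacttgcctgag
Ldha, chr7:46845554-46845803, plus strand: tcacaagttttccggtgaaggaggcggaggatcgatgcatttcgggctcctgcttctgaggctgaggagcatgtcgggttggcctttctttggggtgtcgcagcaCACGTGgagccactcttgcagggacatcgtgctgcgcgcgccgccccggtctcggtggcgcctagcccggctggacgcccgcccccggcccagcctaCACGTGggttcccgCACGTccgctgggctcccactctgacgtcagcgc
Pfkl, chr10:78009808-78010057, minus strand: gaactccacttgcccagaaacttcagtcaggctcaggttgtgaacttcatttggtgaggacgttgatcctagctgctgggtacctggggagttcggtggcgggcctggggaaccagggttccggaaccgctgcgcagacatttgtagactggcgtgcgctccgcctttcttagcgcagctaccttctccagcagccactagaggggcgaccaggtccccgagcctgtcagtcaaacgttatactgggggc
Pdk1, chr2:71872974-71873223, plus strand: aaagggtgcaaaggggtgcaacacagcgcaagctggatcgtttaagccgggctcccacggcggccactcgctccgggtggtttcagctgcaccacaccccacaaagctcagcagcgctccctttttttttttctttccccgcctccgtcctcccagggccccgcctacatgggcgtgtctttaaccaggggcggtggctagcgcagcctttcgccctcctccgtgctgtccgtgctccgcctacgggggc

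The marked letters lay 36 bases before the start of Slc2a1, 226 and 52 before that of Hk2, and 150 and 131 before that of Pgk1. They lay 114 before that of Pgam1, and 145, 48 and 34 before the start that the printed Ldha window precedes.

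None of the 21 probes was saturated, and each was well above background in both channels on 28 to 30 of the 30 arrays. Median processed signal per array ranged from 832 to 1870 in Cy5 and from 846 to 1954 in Cy3, and 6.78% to 44.8% of spots per array (median 16.0%) were marked as outliers by the scanner software and left out. This filter fell hardest on Ldha, whose probes were marked on 28 and 20 of the 30 arrays, so 9 members were tested and Ldha is given apart, with marked spots kept. Replicate arrays correlated at r = 0.406 to 0.655 over all probes. The arrays had been scanned in 4 batches: the first held the 11 wild type arrays of replicate 1, the second the 11 wild type arrays of replicate 2 with the 4 knockout arrays of replicate 1, and the last ones the 3 and 1 other knockout arrays. All 9 fibroblast markers looked at (such as Col1a1, Col1a2 and Vim) were well above background on all 30 arrays, but so were 4 of 4 epithelial, 2 of 3 endothelial, 3 of 3 leukocyte and 3 of 3 muscle markers, so this flag did not separate cell types. Mapk14, which encodes p38α and had 1 probe, lay at a log2 ratio between 0.03 and 1.31 on the wild type arrays. On the knockout arrays it was at -0.94 and -1.98 in untreated cells, -1.26 and -2.24 with anisomycin, -1.14 and -1.13 with TNFα, and -1.09 and -1.93 with NaCl, below every wild type array, although less so on the arrays numbered 1 in 3 of the 4 groups. Whether the probe lies in the deleted part of the gene is not given in the sources used here.

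**Figure D1:**
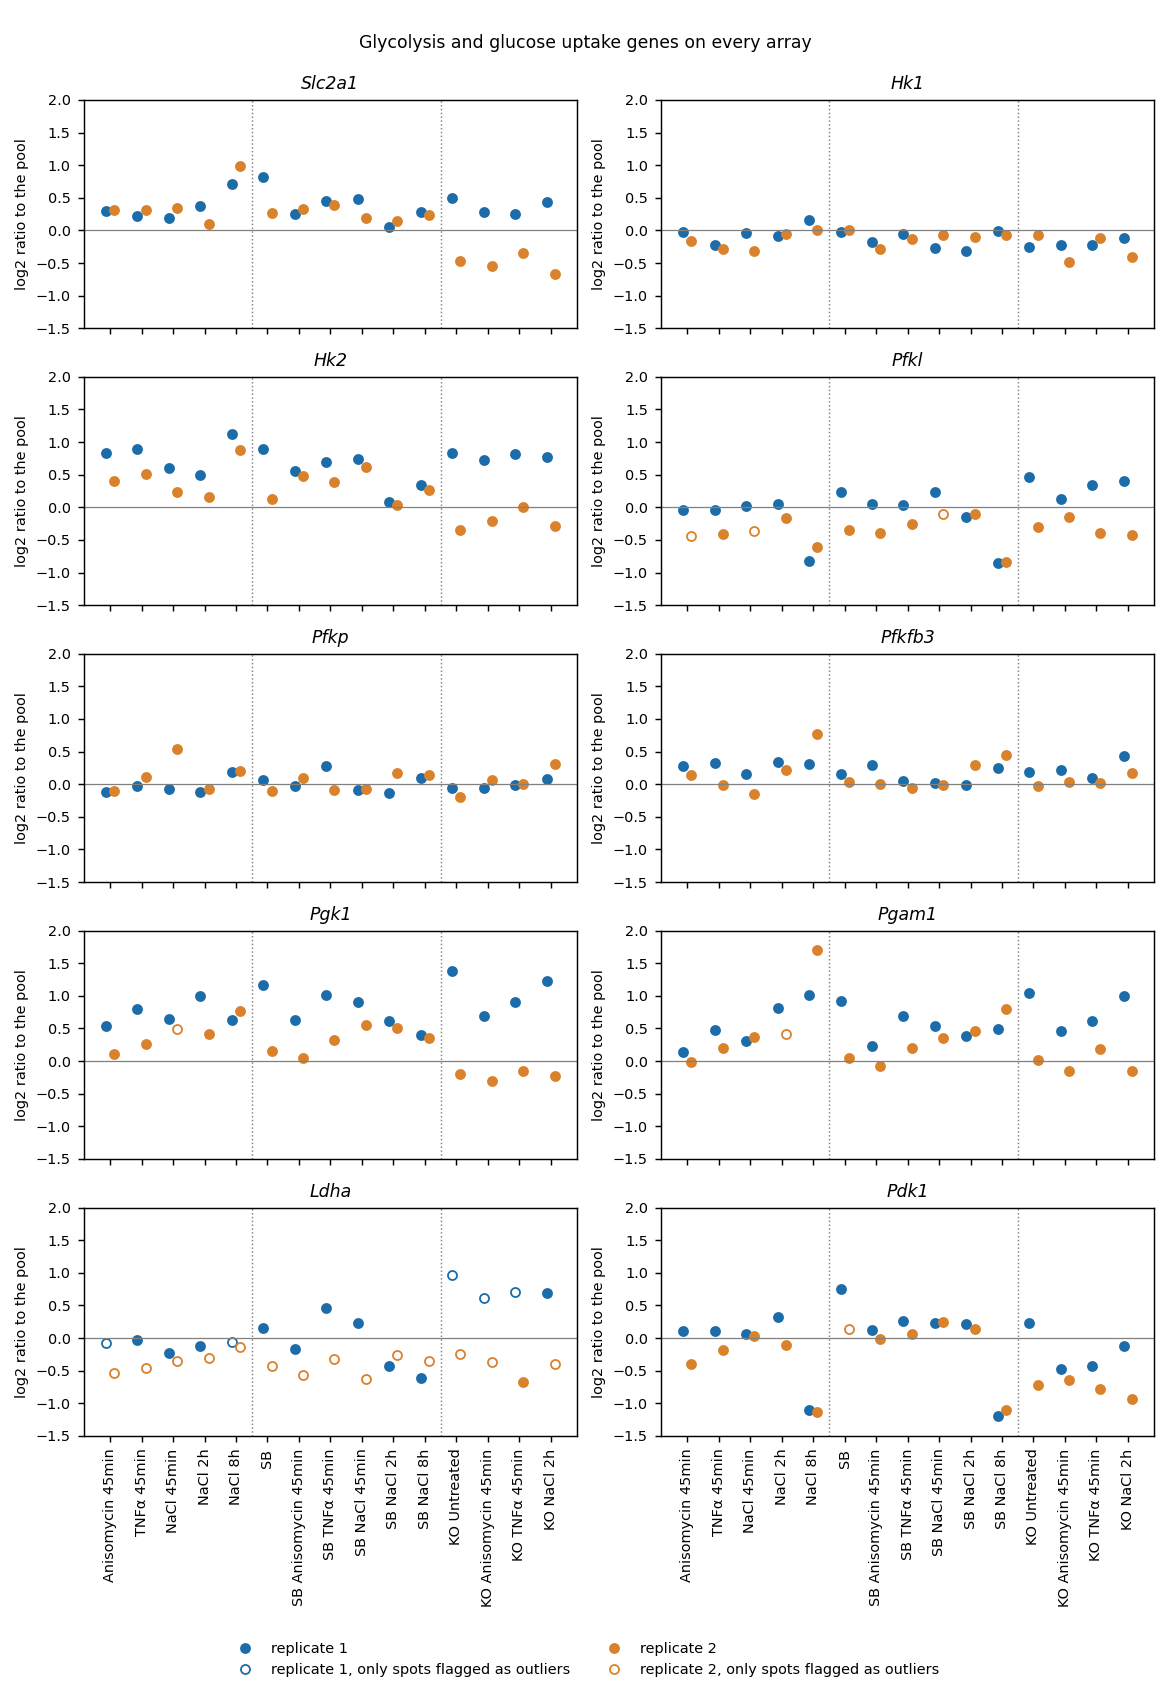
Log2 ratio against the untreated wild type pool (vertical axis) of the 10 members in the 15 groups (horizontal axis), with 1 point per array, blue for replicate 1 and orange for replicate 2. Open points rest only on spots marked as outliers. Slc2a1, Hk2, Pgam1 and Pgk1 sit above 0 in NaCl 8 h, as they do on most other wild type arrays. Pdk1 and Pfkl sit below 0 at 8 h with and without SB203580. The 2 replicates of the knockout stand apart for Slc2a1, Hk2, Pgk1 and Pgam1.

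NaCl for 8 h was the only wild type group with stress alone in which a member passed the test against the pool. Of the 9 members tested, 6 differed from the pool, 4 higher and 2 lower, where 22.2% of the 16378 genes tested were called (adjusted p under 0.05 over all genes in limma's moderated test). The median of the 9 log2 ratios was 0.54, against 0.00 for all genes. The 4 called higher were Slc2a1 (uptake), Hk2 (trapping), Pfkfb3 (activation) and Pgam1 (lower pathway), so each of these steps rests on 1 gene. The 2 called lower were the phosphofructokinase subunit Pfkl and the pyruvate dehydrogenase kinase Pdk1. Since these are whole cultures, a change in the number of expressing cells and a change in RNA per cell cannot be told apart.

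Pgam1, the mutase of the lower pathway, was highest at 1.02 and 1.70 on the 2 arrays. Its mean log2 ratio of 1.36 (SE 0.27, n = 2) was a 2.56-fold level (adjusted p = 0.00144 in limma). Hk2, the inducible hexokinase, read 1.13 and 0.87, a mean of 1.00 (SE 0.28, adjusted p = 0.0144). Each of these Hk2 values was above that of every other wild type array with the same replicate number. How many of all genes rank so was not counted. Slc2a1, the glucose transporter, read 0.70 and 0.98, a mean of 0.84 (SE 0.23) or 1.79-fold (adjusted p = 0.0139). Pfkfb3, averaged over its unmarked probes, read 0.30 and 0.77 with a mean of 0.54 (SE 0.12, adjusted p = 0.00345). With marked spots kept, the second array read 0.52.

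In the other direction, Pdk1 read -1.10 and -1.14. The mean of -1.12 (SE 0.19) left 0.460 of the pool's level, and its adjusted p of 0.000407 was the lowest among the members. Pfkl read -0.82 and -0.60, a mean of -0.71 (SE 0.22, adjusted p = 0.0309). The usable arrays of these 2 genes did not overlap with the other wild type NaCl times, and the share of all genes separated so was not counted. Pgk1, at 0.63 and 0.77 (mean 0.70, SE 0.38), was above the pool on both arrays, but its replicates differed more over the groups (median SD 0.41, against 0.20 for Slc2a1), and it was not called (adjusted p = 0.214). Hk1, the constitutive hexokinase, and Pfkp had means of 0.08 and 0.20 and were not called. Ldha, with marked spots kept, had a mean of -0.10, its 2 probes reading 0.17 and 0.05 on one and -0.31 and -0.31 on the other.

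With the replicate number as a block, 7 of the 9 were called (28.2% of all genes), Pgk1 being the one added (adjusted p = 0.00278). Against the pool the block takes the shift shared by same-numbered arrays out of the error. The SE of Pgk1 was 0.15 with it and 0.38 without, at the same mean, so block calls against the pool do not allow for that shift. With the array of replicate 1 left out, 3 of the 6 calls remained, those of Pfkfb3, Pgam1 and Pdk1, and with that of replicate 2 left out only Pdk1's did.

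Near-identical copies and several probes per gene bear on these values. Processed copies of Ldha, Pgk1 and Pgam1 occur in the mouse genome, and a probe can pick up more than the named gene. For the genes with several probes, each probe was also fitted by itself, with marked spots kept, a choice made after the data were seen. In NaCl 8 h, 8 of the 21 probes were called, 5 higher and 3 lower (22.4% of the 41174 probes). The 3 Pfkfb3 probes disagreed. Probe A_51_P212491 read 1.07 and 1.37 at 8 h, a mean of 1.22 or 2.33-fold (adjusted p = 0.000164), and was higher than the pool in 5 of the 15 groups, among them anisomycin, at 1.18 and 0.56. Its other 2 probes, which the files assign to another transcript record, were called in none of the 15 groups, with means from -0.11 to 0.06 and from -0.18 to 0.32. With marked spots kept, averaging the 3 thus gave 0.41 at 8 h where 1 of them gave 1.22. The 0.54 given above left marked spots out, which moved the second array from 0.52 to 0.77.

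Hk1 showed the same split in the opposite direction. Probe A_51_P249024 was lower than the pool in all 15 groups, at means from -1.48 to -0.62, and A_52_P479599 was lower in 10, while A_52_P102773, A_52_P87141 and A_52_P9337 were called in none. With 1 pool and no dye swap, a value shared by every group cannot be told apart from the pool's own level or a dye effect. Probe A_52_P674530 was lower in 11 groups but read 0.36 and 0.21 at NaCl 8 h (mean 0.29, adjusted p = 0.0199). From 45 min to 8 h this probe rose by 0.61 (adjusted p = 0.00367), and from 2 h to 8 h by 0.44 (adjusted p = 0.0343). Pfkp probe A_51_P378856 behaved alike, being lower in 11 groups and at 0.14 and -0.03 at 8 h, a rise of 0.51 over 2 h (adjusted p = 0.0243). The other Pfkp probes differed from it: A_52_P572045 was called higher in 3 of the 15 groups, with means of up to 0.87, and A_52_P223083 in none. Over the step from 45 min to 8 h, 4 of the 21 probes were called, 3 higher and 1 lower (6.80% of all probes).

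**Figure D2:**
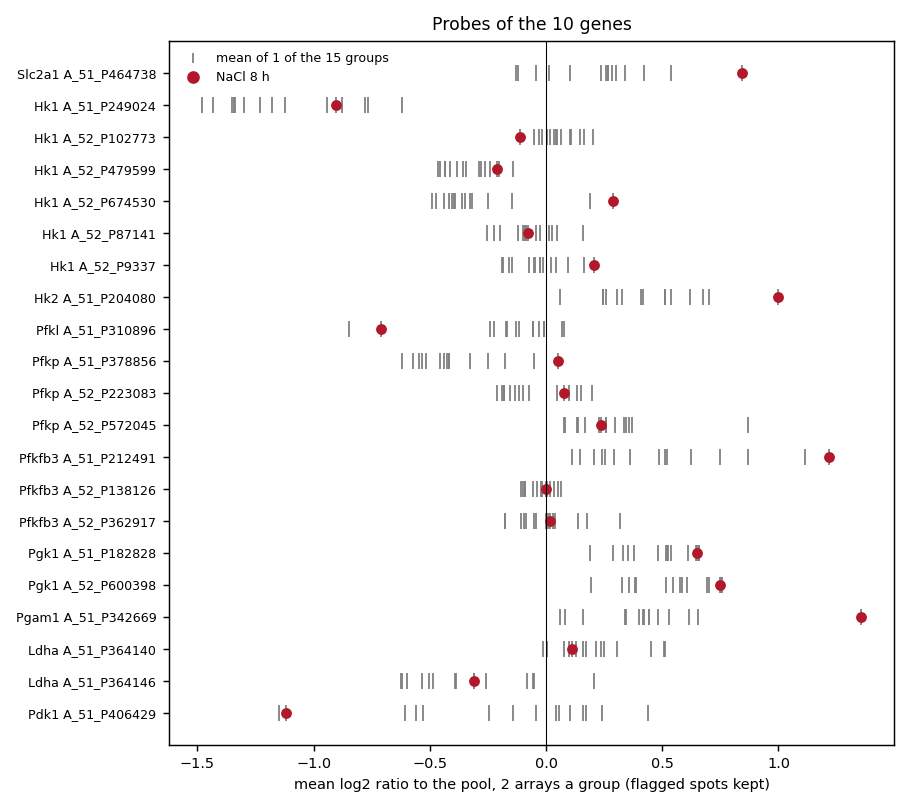
Mean log2 ratio against the pool (horizontal axis) of each of the 21 probes, with outlier spots kept, a tick for each of the 15 groups and a red point for NaCl 8 h. The first Pfkfb3 probe reaches 1.22 at 8 h while the other 2 stay between -0.18 and 0.32 in all groups, and Hk1 probe A_51_P249024 lies below 0 in every group.

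Slc2a1, Hk2 and Pdk1 were farther from the pool at 8 h than at the earlier NaCl times. After 45 min and 2 h of NaCl the means of Slc2a1 were 0.27 and 0.24, against 0.84 at 8 h, and those of Hk2 were 0.42 and 0.33, against 1.00. Pdk1 stood at 0.06 and 0.02 at 45 min and at 0.32 and -0.11 at 2 h, before the -1.10 and -1.14 of 8 h. Its fall by 1.22 (SE 0.27) from 2 h to 8 h was called (adjusted p = 0.00916), as was the fall by 1.16 from 45 min (adjusted p = 0.0127). Pdk1 was the only member called, of 8 tested from 2 h and 7 from 45 min, where 7.81% and 7.53% of genes were. Pgam1 could not be tested from 2 h, nor Pfkl and Pgk1 from 45 min. The call from 45 min was lost without any 1 of its 4 arrays (differences of -1.18 to -1.14, adjusted p of 0.0575 to 0.076), and that from 2 h without the first array of NaCl 2 h (-1.01, adjusted p = 0.111) or the second of NaCl 8 h (-1.21, adjusted p = 0.0546).

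When replicates were blocked, 4 of the 8 members tested were called from 2 h to 8 h (11.2% of genes). Slc2a1 rose by 0.61 and Hk2 by 0.67, while Pfkl fell by 0.65 and Pdk1 by 1.22. From 45 min to 8 h, 5 of the 7 tested were called (11.3% of genes). Slc2a1 was up by 0.58, Hk2 by 0.58, Pfkfb3 by 0.54 and Pgam1 by 1.01, and Pdk1 was down. Pgam1 stood at 0.31 and 0.37 after 45 min and at 0.82 on the single usable array at 2 h.

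**Figure D3:**
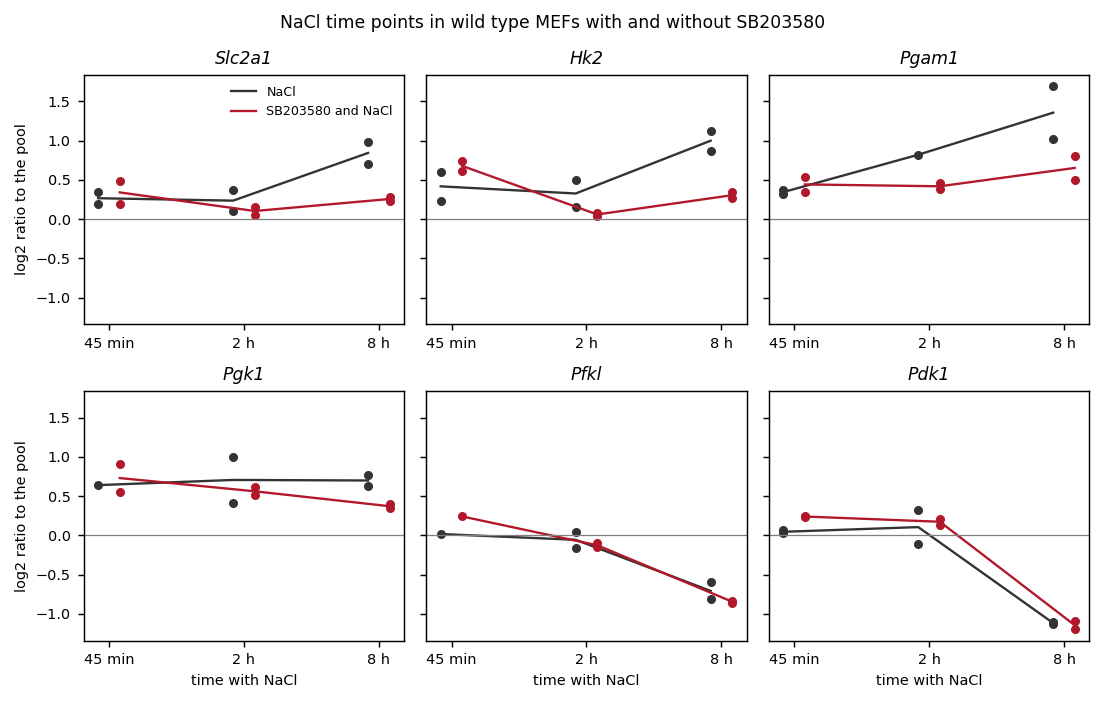
Log2 ratio against the pool (vertical axis) of 6 members at 45 min, 2 h and 8 h of NaCl (horizontal axis, evenly spaced), with a point for each usable array and lines through the means, black for NaCl and red for SB203580 and NaCl. Slc2a1, Hk2 and Pgam1 are highest at 8 h of NaCl alone, whereas the Pdk1 lines end at -1.12 and -1.15.

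In the 4 other wild type stress groups no member was called by limma, where 10.7% of the genes tested in them were. An unadjusted p under 0.05 was reached by 4 of the 32 member values. On single arrays, Slc2a1 and Hk2 were nevertheless above 0 on 22 of 22 wild type arrays, Slc2a1 from 0.06 to 0.98 with a median of 0.30, and Hk2 from 0.03 to 1.13 with a median of 0.50. Pgk1 was above 0 on 21 of 21, from 0.05 to 1.16. These counts include the arrays with SB203580 and share 1 pool, so they do not tell a stress from the pool's own level or the dye. With the replicate block, 6 values in these groups were called (18.7% of all), all higher: Hk2 in anisomycin (0.62), TNFα (0.70), NaCl 45 min (0.42) and NaCl 2 h (0.33), and Pgk1 in TNFα (0.53) and NaCl 2 h (0.71). With outlier spots kept, 3 were called in limma's fit, all of Hk1 and all lower: anisomycin (-0.41, adjusted p = 0.00133), TNFα (-0.33, adjusted p = 0.00693) and NaCl 45 min (-0.31, adjusted p = 0.0135).

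The inhibitor groups compare each stress with and without SB203580, and no knockout group had 8 h of NaCl to set beside them. With SB203580, Pdk1 and Pfkl were again called lower than the pool at 8 h, and the members that had been higher had smaller means. Pdk1 read -1.20 and -1.10 (mean -1.15, SE 0.19, adjusted p = 0.000439) and Pfkl -0.86 and -0.84 (mean -0.85, SE 0.22, adjusted p = 0.013), the only members called against the pool (21.2% of genes). Slc2a1 read 0.28 and 0.23 in place of 0.70 and 0.98. Hk2 read 0.34 and 0.27 in place of 1.13 and 0.87. Pgam1 read 0.50 and 0.81 in place of 1.02 and 1.70. For these 3 genes neither array with SB203580 reached either array without it. That is a separation of 2 arrays from 2, in genes chosen for being high without the inhibitor, and its share over all genes was not counted. Under the replicate block, 5 members were called against the pool at 8 h with SB203580 (28.5% of genes), since Hk2 at 0.30, Pfkfb3 at 0.34 and Pgam1 at 0.65 were added. With either array of this group left out, 1 of the 2 calls remained, that of Pdk1.

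The difference itself, SB203580 with NaCl 8 h minus NaCl 8 h, was -0.59 (SE 0.33) for Slc2a1, -0.69 (SE 0.39) for Hk2, -0.71 (SE 0.38) for Pgam1 and -0.33 (SE 0.53) for Pgk1. It was -0.14 (SE 0.31) for Pfkl and -0.03 (SE 0.27) for Pdk1. All 9 members lay below 0, with a median of -0.19 against 0 for all genes. None was called by limma, where 0.206% of 15082 genes were. The adjusted p was 1 for each of the 6 and none of the 9 had an unadjusted p under 0.05. With the replicate block, which here equals the wild type scan, Hk2 was called at the same difference (SE 0.15, adjusted p = 0.039) among 0.583% of genes. Slc2a1 had SE 0.16 and adjusted p = 0.175 there. In the probe-by-probe fit with the block, Hk2's adjusted p was 0.0515. In the 4 other stresses no member tested was called between stress with and without SB203580 (0.00517% of genes). The mean difference over the 5 stresses was called for none of the 6 members tested (0.0742% of genes). Pfkl, Pgk1 and Pgam1 lacked a usable array for it and were not tested. No member value in these comparisons had an unadjusted p under 0.05 either.

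**Figure D4:**
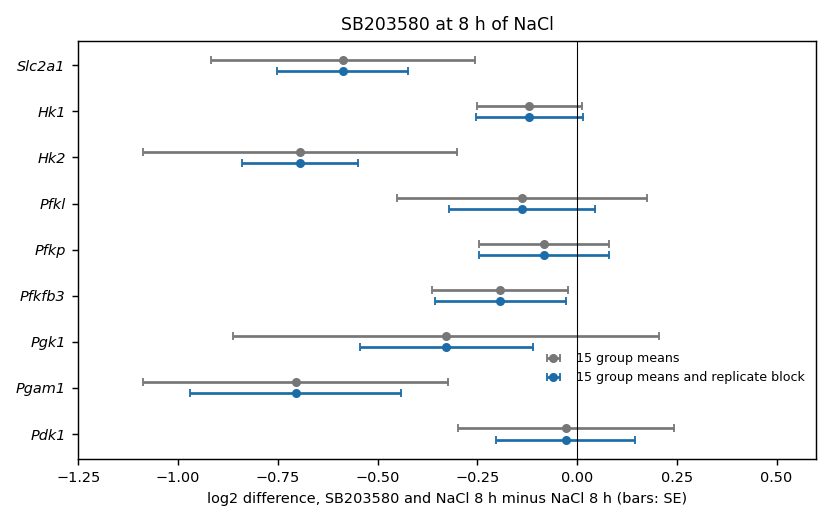
Log2 difference between SB203580 with NaCl 8 h and NaCl 8 h alone (horizontal axis) for the 9 tested members. Points are the fitted differences and bars 1 SE, grey without and blue with the replicate block. Slc2a1, Hk2 and Pgam1 lie lowest, at -0.59, -0.69 and -0.71, with shorter bars under the block, and Pdk1 lies at -0.03.

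SB203580 alone gave levels that differed widely between its 2 arrays. Slc2a1 read 0.81 and 0.26, Hk2 0.90 and 0.13, Pgk1 1.16 and 0.15, and Pgam1 0.92 and 0.04, the first array being the higher each time. In the 5 SB203580 groups other than 8 h of NaCl no member was called (16.2% of genes; 4 of 43 values had an unadjusted p under 0.05), and with the block 11 values were (23.9%), all of Slc2a1, Hk2 and Pgk1. Measured from SB203580 alone, 8 h of NaCl with the inhibitor called none of the 8 members tested (7.78% of genes). Pfkl alone had an unadjusted p under 0.05. With the block Pfkl alone was called, at a difference of -0.79 (adjusted p = 0.0122, 11.0% of genes). Pdk1 was not tested there, as SB203580 alone had 1 usable array of it. With marked spots kept, its means were 0.44 with SB203580 alone and -1.15 with SB203580 and 8 h of NaCl.

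The difference of inductions, that is the stress response counted from SB203580 alone, or from untreated knockout cells, minus the response counted from the pool, was computed for 8 cases. No member was called (0.536% of all genes and cases), and 3 of 61 values, those of Slc2a1, Hk2 and Pgam1 at 8 h of NaCl with SB203580, had an unadjusted p under 0.05. With the replicate block 4 values were (2.91%), all of them negative and all with SB203580. Slc2a1 at 8 h of NaCl had a difference of -1.12 (adjusted p = 0.00994 with the block, 0.183 without), and Hk2 one of -1.21 (0.00401 and 0.228). Hk2 also had -0.78 at NaCl 2 h (0.0228 and 0.397) and -0.68 with TNFα (0.049 and 0.523). These values hold the high first array of SB203580 alone in their starting level. A pool or dye level shared by every array of a gene also enters them, with its sign turned, because only the response without SB203580 is counted from the pool. Slc2a1 and Hk2 were above 0 on 22 of 22 wild type arrays, with medians of 0.30 and 0.50. The part of such a level in these values was not tested.

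The knockout cells were read against the same pool. In the 4 knockout groups 1 of 36 member values was called (13.4% of genes), Hk1 with anisomycin at -0.23 and -0.49 (mean -0.36, adjusted p = 0.0176). It was not called without the second array (-0.23, adjusted p = 0.418), and with the brightest probe alone its sign turned, to 0.066 (adjusted p = 0.703). The low probe A_51_P249024, at -1.02 and -1.69, entered the Hk1 mean on both of these arrays, whereas it had been left out as marked on 20 of the 30 arrays. With the replicate block 7 values were called (19.3%): that of Hk1, Hk2 in TNFα (0.41), Pgk1 in untreated (0.59) and NaCl-treated cells (0.50), and Pdk1 in anisomycin (-0.56), TNFα (-0.61) and NaCl (-0.53).

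Within the knockout line no member passed the test for a stress. Over the 3 comparisons with untreated knockout cells no member was called (0.422% of genes), and over the 3 comparisons of a knockout stress with the same wild type stress none was either (0.800%). An unadjusted p under 0.05 was reached by 0 of 27 and 1 of 25 values, the latter being Pdk1 with NaCl. When the 3 genotype comparisons were averaged, Pdk1 was lower in the knockout by a log2 difference of -0.54 (SE 0.16, adjusted p = 0.0398), the 1 call among 7 members tested (8.81% of genes). Its knockout arrays read 0.23 and -0.72 untreated, -0.47 and -0.65 with anisomycin, -0.43 and -0.78 with TNFα, and -0.13 and -0.93 with NaCl. The values of the second replicate were the lower in all 4 groups.

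The genotype calls depended on how the scans were treated. Under the block 2 members were called (18.4% of genes), Pdk1 (adjusted p = 0.00175) and Slc2a1 at -0.37 (adjusted p = 0.0134). With the scan as a term, 2 others were (8.79%): Hk2 was higher in the knockout by 0.39 (adjusted p = 0.0275) and Pgk1 by 0.67 (adjusted p = 0.0144), while Pdk1 was at -0.19 (adjusted p = 0.42). Within the second scan, which held both genotypes, the knockout minus wild type difference averaged over the stresses was -0.11 for Pdk1 (below 0 in 3 of 3, from -0.24 to -0.02), 0.09 for Slc2a1 (below 0 in 2 of 3, and 0.33 with NaCl), 0.42 for Hk2 and 0.68 for Pgk1. Pdk1's call was also lost in 9 of the 30 fits that left out 1 array, with differences from -0.67 to -0.40 over all 30 and an adjusted p of up to 0.135. These arrays were both of TNFα and of anisomycin in the knockout, the second of NaCl in the knockout, both of TNFα in the wild type, and the first of anisomycin and of NaCl 2 h in the wild type.

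The largest difference in the knockout line lay between its arrays and not between its treatments. The term for replicate 1 minus replicate 2 in the knockout, looked at after the data were seen, was called for 6 of the 9 members, all higher in replicate 1, where 3.52% of 19447 genes were called (370 higher and 314 lower). Over the members its median was 0.65, and over all genes 0.00. Pgk1 led with 1.28 (adjusted p = 0.000289), followed by Hk2 with 1.00 (adjusted p = 7.04e-05), Slc2a1 with 0.87 (adjusted p = 0.000572), Pgam1 with 0.81 (adjusted p = 0.0253), Pfkl with 0.65 (adjusted p = 0.015) and Pdk1 with 0.57 (adjusted p = 0.0188). Hk1 (0.07), Pfkp (-0.06) and Pfkfb3 (0.18) were not called.

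For the genes called, the single arrays of the 2 replicates did not overlap. Pgk1 in the knockout read 0.69 to 1.38 on the 4 arrays of replicate 1 and -0.31 to -0.15 on those of replicate 2. Slc2a1 read 0.25 to 0.49 and -0.67 to -0.34, and Hk2 0.73 to 0.83 and -0.35 to 0.00. Pfkl read 0.13 to 0.46 and -0.42 to -0.15, Pgam1 0.47 to 1.04 and -0.16 to 0.18, and Pdk1 -0.47 to 0.23 and -0.93 to -0.65. For each of these genes the lowest array of replicate 1 stood above the highest of replicate 2, whatever the treatment. The genes were listed because the replicate term was called for them, so this separation is not a further result. Its share over all genes was not counted. Ldha, with marked spots kept, took part as well: 7 of 10 members were then called (7.09% of genes), and Ldha differed by 1.10 (adjusted p = 4.05e-05), both of its probes being higher in replicate 1 in all 4 groups.

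The knockout replicates were scanned apart, so the replicate and the scan cannot be told apart there. In the wild type, whose replicates were also scanned apart, 2 of 9 members were called in the same direction (15.4% of genes), Hk2 at 0.29 (adjusted p = 0.00445) and Pgk1 at 0.42 (adjusted p = 0.00731). Other genes of the hypoxia list moved with the knockout split: 4 of 20 were higher in replicate 1 and none lower, among them Ero1l (0.71) and P4ha2 (0.73), which act in protein folding and collagen hydroxylation, and Higd1a (0.49). Of the rest of glycolysis, 0 of 15 were called. Mapk14 was also higher in replicate 1 than in replicate 2 in 3 of the 4 knockout groups. The part of the scan, or of any difference between the cultures, in the split was not tested.

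**Figure D5:**
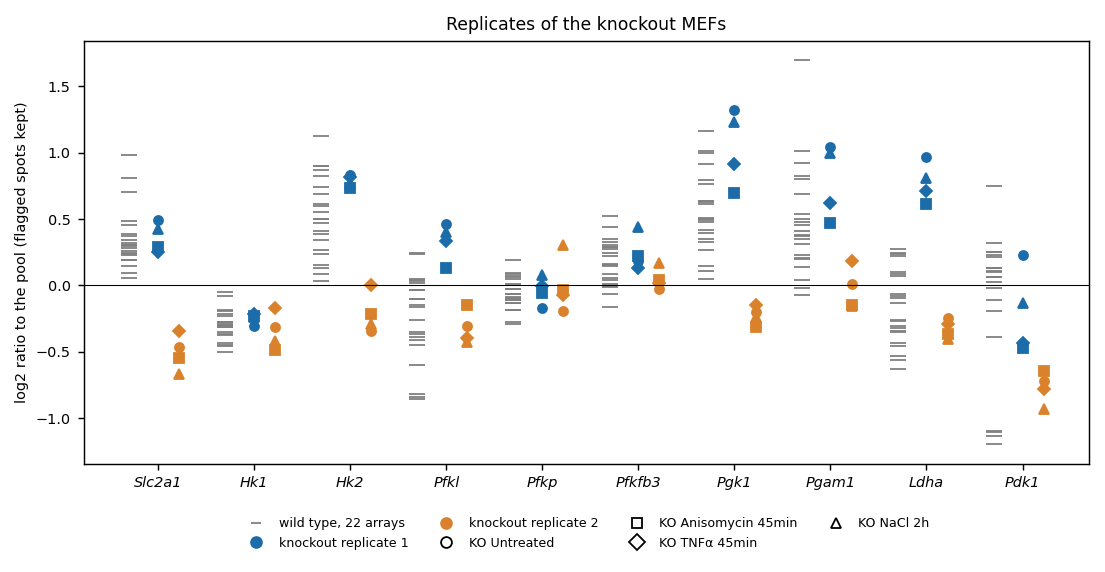
Log2 ratio against the pool (vertical axis) of the 10 members, with outlier spots kept, on the 8 knockout arrays (blue for replicate 1, orange for replicate 2, shapes for the 4 groups) beside the 22 wild type arrays (grey marks). Every blue point lies above every orange one for Slc2a1, Hk2, Pfkl, Pgk1, Pgam1, Ldha and Pdk1, while the colours overlap for Hk1, Pfkp and Pfkfb3. The replicate term was called for the genes so separated on these same arrays, and the share of all genes so separated was not counted.

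Genes of the wider pathway were called in both directions at 8 h of NaCl, where 22.2% of all genes tested were called. Of 13 other glycolysis genes tested, 1 was higher, Pkm (0.79), the pyruvate kinase of the last step, and 1 lower, Ldhb (-0.72), the heart-type lactate dehydrogenase subunit. Of 12 genes of glucose and lactate transport and flux control, none was higher and 3 were lower: Txnip (-1.17), which restrains glucose uptake, the insulin-responsive transporter Slc2a4 (-0.61), and Pfkfb1 (-0.43). Txnip was also lower after NaCl for 2 h, at -0.70 in wild type cells, -0.89 with SB203580 and -0.97 in the knockout, each called. In the hypoxia list 3 of 17 were higher, among them Hif1a itself (1.77) and Adm (0.40), and 2 lower, Egln1 (-0.63), a prolyl hydroxylase that marks HIF for decay, and Bnip3 (-0.46). In the pentose phosphate pathway, which branches off at glucose 6-phosphate, Taldo1 was higher (0.36) and Pgd lower (-0.51) among 5. In the citric acid cycle 2 of 7 were lower and none higher, Sdhb (-0.82) and Fh1 (-0.64). The median log2 ratios of the 5 lists in this order were 0.03, -0.18, 0.15, 0.03 and -0.23, beside 0.54 for the members and 0.00 for all genes.

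At 8 h with SB203580, where 21.2% of all genes tested were called, the rest of glycolysis had 1 of 11 higher, the enolase Eno2 (1.12), and 2 lower, the enolases Eno1 (-0.55) and Eno3 (-0.44). In transport and flux control 3 of 10 were lower and none higher, Slc2a4 (-0.64), Slc2a8 (-0.44) and Pfkfb1 (-0.39). Of 16 genes in the hypoxia list, Egln1 was lower (-0.55) and none higher. In the pentose pathway 2 of 4 were higher and none lower, Rpia (0.52) and Rpe (0.48), and in the citric acid cycle 2 of 4 were lower and none higher, Fh1 (-0.53) and Idh3g (-0.51). In none of the 5 lists was a gene called between NaCl 8 h with and without the inhibitor, where 0.206% of all genes tested were. In the mean genotype difference, where 8.81% of all genes tested were called, 1 of 9 in the rest of glycolysis was called, Aldoc (-0.40), and 2 of 9 in transport and flux control, Slc2a8 (0.40) and Pdk3 (-0.34). In the hypoxia list 1 of 10 was called, Car12 (0.49), in the pentose pathway 0 of 3, and in the citric acid cycle the 1 gene tested, Suclg2 (-0.38).

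Pdk1 spanned the widest range of group means among the members, 1.89, from -1.15 at 8 h of NaCl with SB203580 to 0.75 with SB203580 alone, the latter resting on 1 array. The next lowest means were -1.12 at 8 h of NaCl alone and then -0.61 in TNFα-treated knockout cells. Those of the other 12 groups lay from -0.56 up. Over the 15 group means, the genes most like it in pattern among 10458 measured on all arrays were Gsta3 (r = 0.980), Fkbp3 (r = 0.976) and 9330175B01Rik (r = 0.973). These points share 1 pool and scan batches, so the values are a description. Gsta3 and Fkbp3 stood at -0.30 and -0.25 at 8 h of NaCl, a smaller drop from the pool than Pdk1's, and 9330175B01Rik at -1.01.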

How the data were processed

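RNA from 30 MEF cultures was measured on 2-colour Agilent 44K arrays. The authors' scanner files, made with Agilent Feature Extraction (8.1.1.1 per the file headers, 9.1 in the submitters' processing notes), hold spot intensities and, as deposited, the log10 ratio of dye-normalised Cy5 over Cy3. The deposited series matrix holds probe values on a log2 scale, set against the scanner files as an alternative. Its centring and the step that made it are not given in the sources used here, and its values were compressed relative to the scanner log2 ratios.

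Log10 ratios were multiplied by 3.322 to give log2 ratios. Control spots were removed, as was any spot that the software had marked as an outlier in one channel or both, and the rest were averaged to probes and probes to genes. All 30 arrays entered 1 fit of 15 group means (R 4.3.3, limma 3.58.1, moderated, 2-sided), checked against limma's own fit and tested on simulated data. The simulated arrays were independent, with no value missing and no shift shared by same-numbered arrays. They therefore did not test the fit under such a shift. A gene was tested where every array of the compared groups had a value, and called at a Benjamini-Hochberg adjusted p under 0.05 over all such genes. A fold is 2 to the power of the log2 value. Depth is not defined for arrays, and their number limits the precision.

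Same-numbered arrays deviated from their group means together within a genotype: over 10458 genes the correlation exceeded 0.1 for 55 of 55 pairs of wild type groups (0.216 to 0.657) and 6 of 6 of knockout groups (0.160 to 0.392), but for 3 of 44 pairs across genotypes. The numbers were therefore taken to pair arrays within a genotype, and the fit with that block is given beside a result where it changed a call. Against the pool, the block leaves the shift shared by same-numbered arrays out of the SE and takes its mean over the replicates as 0. Its calls against the pool rest on that assumption, which was not tested.

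The 10 members were all named. Of the context lists (the rest of glycolysis, glucose and lactate transport and flux control, the hypoxia pathway, the pentose phosphate pathway and the citric acid cycle), at most 4 called genes a list were named in each comparison whose lists are described, those with the largest absolute log2 difference, and 1 called gene is not reported here. The members and lists were chosen with earlier results of these data known. Promoter windows came from RefSeq (GRCm38.p6). Alternatives were another background correction and dye normalisation (normexp with an offset of 50, then loess), the series matrix, the brightest probe, spots well above background only, outlier spots kept, centring on the array median, the replicate block, the scan as a term, and leaving out each array in turn. Fits of single probes and the terms for replicate 1 minus replicate 2 were added after the data were seen.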

Additional observations from a re-analysis of the deposited data

Results flagged for a closer look

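The stress response counted from SB203580 alone differed from that counted from the untreated pool, in the fit with the replicate block, for Slc2a1 at 8 h of NaCl (-1.12 on the log2 scale) and for Hk2 at 8 h of NaCl (-1.21), 2 h of NaCl (-0.78) and with TNFα (-0.68). Without the block the adjusted p was 0.183 for Slc2a1 and 0.228, 0.397 and 0.523 for Hk2. A pool or dye level shared by all arrays of a gene enters these values with its sign turned, as does the high first array of SB203580 alone. The part of either was not tested.

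Ldha had an unmarked spot on 11 of the 30 arrays and was not tested with the marked spots left out. With the marked spots kept, its replicate 1 was higher than its replicate 2 by 1.10 in the knockout (adjusted p = 4.05e-05 in limma) and by 0.46 in the wild type (adjusted p = 0.00028). The software's reason for marking these spots was not tested.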

How the results depend on the processing

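Counts of called members moved most with the replicate block and the series matrix. For wild type stress alone, 6 calls became 9 with outlier spots kept, 11 with the series matrix, 13 with the replicate block, 1 at a mean change of at least 2.5-fold, and 1 to 7 with an array left out. For the SB203580 groups against the pool, 2 became 8 with outlier spots kept, 6 with normexp and loess, 13 with the series matrix, 16 with the replicate block and 1 to 3 with an array left out. For the knockout groups, 1 became 4 with outlier spots kept, 2 with normexp and loess, 8 with the series matrix, 7 with the replicate block and 0 to 5 with an array left out (4 without either untreated array, 5 and 3 without the first and second of NaCl, 2 and 0 without those of anisomycin). SB203580 with stress minus stress alone went from 0 to 1 with the replicate block or the scan term, and to 0 to 0 with an array left out. Counted from SB203580 alone, 0 became 1 with outlier spots kept, the series matrix, the replicate block or the scan term, and 0 to 1 with an array left out (1 without the second of SB203580 alone). The NaCl time points went from 2 to 9 (replicate block), 8 (scan term) and 0 to 2 (an array left out), the mean genotype difference from 1 to 2 (replicate block, scan term) and 0 to 1, the difference of inductions from 0 to 4 (replicate block) and 0 to 0, and the wild type replicate term from 2 to 4 with outlier spots kept. Comparisons within the knockout, between genotypes for single stresses and of the mean SB203580 effect gave 0 calls in every setting run. Hk1 in the anisomycin-treated knockout turned from -0.36 to 0.066 with the brightest probe. The cause of these moves was not tested. A scan term could not be fitted for comparisons against the pool, since a shift of a whole scan and a mean ratio to the pool are then the same term. The replicate block, which equals the scan in the wild type, could be fitted there only by taking the mean shift over the replicates as 0. Its higher counts against the pool rest on that.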
